A study of Mus musculus with 4 samples.

Results

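The microRNAs miR-122, miR-192, miR-194 and miR-215, known from liver, gut and kidney, were followed in whole mouse embryos with and without estrogen receptor alpha (ER-alpha). They were taken by name: every assay called miR-122, miR-192, miR-194 or miR-215 once species prefix and arm were set aside. This gave 4 assays, mmu-miR-122, mmu-miR-192, mmu-miR-194 and mmu-miR-215, of 375 microRNA assays read in all 4 samples. All samples were C57BL/6 embryos at E18.5, shortly before birth, and total RNA of the whole embryo was read by TaqMan real-time PCR. The wild-type group held 2 samples and the ER-alpha knockout group held 2. The labels name no knockout allele and no further agent or allele shared by the groups. Whether RNA came from single embryos or from pools is not in the labels, and nothing there ties the samples to separate litters or mothers. Every p-value below therefore rests on differences between the samples alone, and these may be technical. The assays read small RNAs only, so the loss of the receptor's transcript, Esr1, was not checked here.

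MicroRNAs are short RNAs that pair with messenger RNAs, mainly through a seed near their start, and lower their translation or stability. miR-122 is the dominant microRNA of hepatocytes, where it accumulates as the liver matures and is linked to lipid metabolism. miR-192 and miR-215 have the same seed, and with miR-194 they are typical of the epithelium of the intestine and of kidney and liver. These 3 are induced by hepatocyte nuclear factors and by the tumour suppressor p53. The fetal liver is also a site of blood formation, so a whole embryo brings these microRNAs together with those of blood cells.

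The sequences are shown because they give how alike the targets of the assays are and which genes share a mature RNA. RefSeq held 3 of the 4 names (build GRCm38.p6). The assay names carry no arm, and the unmarked names belong to the 5p arm. Mature RNAs are written 5′ to 3′ with the seed, bases 2 to 8, in capitals.
mmu-miR-192: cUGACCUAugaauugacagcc
mmu-miR-215: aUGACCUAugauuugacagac
mmu-miR-194: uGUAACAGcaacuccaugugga
The seed of miR-192 and miR-215 is the same, and among 1679 mature mouse names in the RefSeq table no other microRNA has it. miR-192 and miR-215 are identical at 18 of 21 positions. Counted from the 5′ end of miR-192, the substitutions that give miR-215 are C1A, A12U and C20A. Whether either assay also reads the other RNA was not tested. The seed of miR-194 is shared by no other mature name in that table.

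The genes lie in 2 pairs, each with a copy of miR-194, so the single mmu-miR-194 assay sums the product of both loci. On chromosome 19, on the plus strand, Mir194-2 (chr19:6264643-6264728) is followed after 115 bases by Mir192 (chr19:6264844-6264932), outside any other annotated gene of the table, with Atg2a the nearest protein-coding gene. On chromosome 1, also on the plus strand, Mir194-1 (chr1:185313319-185313385) is followed after 195 bases by Mir215 (chr1:185313581-185313692), and both lie within the span of Iars2. The hairpins follow 5′ to 3′ with the mature 5p RNA in capitals, to show that both copies of miR-194 give the same mature RNA from different precursors.
Mir194-2: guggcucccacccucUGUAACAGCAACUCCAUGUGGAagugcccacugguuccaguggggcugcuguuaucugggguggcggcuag
Mir192: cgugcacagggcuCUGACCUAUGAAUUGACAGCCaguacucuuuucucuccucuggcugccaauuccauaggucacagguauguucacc
Mir194-1: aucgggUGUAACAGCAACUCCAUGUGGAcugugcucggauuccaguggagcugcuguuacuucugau
Mir215: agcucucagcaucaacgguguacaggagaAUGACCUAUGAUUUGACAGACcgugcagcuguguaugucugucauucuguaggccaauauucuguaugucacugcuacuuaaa

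Each well gives a threshold cycle (Ct), the cycle at which the signal crosses a set level, so that a lower Ct means more RNA. PCR gives no read depth, and the number of microRNAs that amplified at a Ct of 35 or lower stands in for it: 254 to 290 per sample. Of these, 229 did so in all 4 samples and were tested, the 4 members among them. Wild-type replicate 1 stood apart. Over the tested assays its Ct values correlated with those of the other samples at 0.939 to 0.954, against 0.978 to 0.989 among the other samples. After a shared constant of 0.273 was taken off, 90.0% of its amplified wells were at most 0.1 cycle away from a whole number, against 21.0% to 26.5% in the others. All 4 members were such wells, 0.028 to 0.051 cycles from a whole cycle, so each member is known in that sample only to about a whole cycle. The members' group differences and the extremes of each list are therefore given below with and without it. Exact permutation tests, shares of assays by sample order, values over a single control, nearest profiles and average levels of lists use all 4 samples.

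The hepatocyte microRNA mmu-miR-122 was read at a Ct of 27.22 and 25.01 in wild-type replicates 1 and 2, and at 24.82 and 25.27 in ER-alpha knockout replicates 1 and 2. Wild-type replicate 1 was later than the other 3 samples by about 2 cycles, and those 3 lay close together. Among the 229 tested assays, ordered from the earliest Ct, it took place 52 and 57 in wild-type and 44 and 55 in knockout samples. It was thus well detected in every embryo sample. Fewer hepatocytes and less of the microRNA per hepatocyte cannot be told apart in RNA of a whole embryo, and the same holds for the other members and their cells.

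Of the seed pair, mmu-miR-192 was read at a Ct of 26.24 and 24.15 in wild-type and 24.20 and 24.59 in knockout samples. It came earliest of the members in all 4 samples, at place 38 and 34 in wild-type and 28 and 40 in knockout. mmu-miR-215, the relative with the same seed from the locus on chromosome 1, was read at 27.25 and 24.68 in wild-type and at 25.21 and 25.26 in knockout samples. Its places ran from 48 to 63. mmu-miR-194, the partner of both, was read at 27.23 and 25.98 in wild-type and at 26.03 and 26.15 in knockout samples. It came at place 58 in wild-type replicate 1 and at places 73 to 77 in the other 3 samples, where it was the latest of the members. The mean Ct over all samples gave the order mmu-miR-192 (24.8), mmu-miR-122 (25.58), mmu-miR-215 (25.60) and mmu-miR-194 (26.4). The efficiency of the assays is unknown, so this order is a description, and mmu-miR-122 and mmu-miR-215 changed places between samples.

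**Figure D1:**
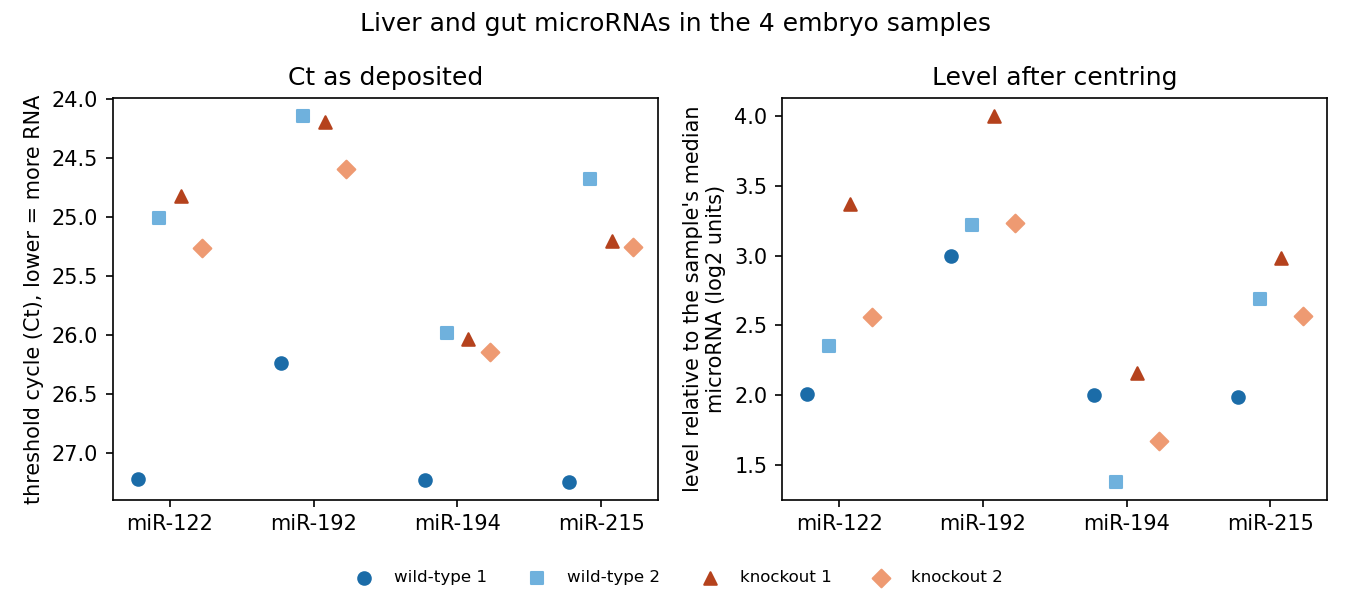
Left, Ct of each member as deposited (axis inverted, so that more RNA is higher); right, the level after centring in log2 units. Each point is 1 sample. Wild-type replicate 1 has the latest Ct of every member, from 26.24 to 27.25, and after centring ER-alpha knockout replicate 1 has the highest level of each. In Ct as deposited, wild-type replicate 2 comes earliest for mmu-miR-192, mmu-miR-194 and mmu-miR-215.

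To compare samples, each Ct was subtracted from the median Ct of the 229 tested microRNAs of its sample. The result is a centred level in log2 units, where 1 unit is a doubling if the assay doubles its product each cycle. The level of mmu-miR-122 was 2.01 and 2.36 in wild-type and 3.37 and 2.56 in knockout samples. Both knockout samples lay above both wild-type samples, with 0.20 between the closest. For mmu-miR-192 wild-type samples had levels of 3.0 and 3.22 and knockout samples of 4.0 and 3.23, again without overlap, but with only 0.015 between the closest samples.

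The groups overlapped for the other members. The level of mmu-miR-194 was 2.0 and 1.38 in wild-type and 2.16 and 1.67 in knockout samples. That of mmu-miR-215 was 1.99 and 2.69 in wild-type and 2.98 and 2.57 in knockout samples. So 2 of the 4 members had both knockout samples above both wild-type samples, where 33.2% of all tested assays did. No member had both knockout samples below both wild-type samples, where 6.11% of assays did. ER-alpha knockout replicate 1 held the highest level of all 4 members, and it held the highest level of 55.0% of all tested assays. Wild-type replicate 1 held the lowest level of 3 members (38.4% of all tested assays), and wild-type replicate 2 that of mmu-miR-194.

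Knockout embryos were set against wild-type embryos to ask whether the receptor's loss goes with a different level of these microRNAs. mmu-miR-122 was 1.72-fold of wild-type in knockout embryos (log2 fold change 0.78, 95% interval of the fold 0.72 to 4.08; levels 2.18 ± 0.24 in wild-type and 2.96 ± 0.57 in knockout, SD, n = 2 each). mmu-miR-192 was 1.42-fold (0.51, interval 0.60 to 3.38; levels 3.11 ± 0.16 and 3.61 ± 0.54). mmu-miR-215 was 1.35-fold (0.44, interval 0.57 to 3.21; levels 2.34 ± 0.49 and 2.77 ± 0.30). mmu-miR-194 was 1.17-fold (0.22, interval 0.49 to 2.77; levels 1.69 ± 0.44 and 1.92 ± 0.34). The intervals come from a variance shared by all tested assays in the fit described next, not from these SDs.

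None of the 4 passed the test. The fit over all 229 assays (limma, two-sided, Benjamini-Hochberg adjustment) gave each member a standard error of 0.64 log2 units and an adjusted p of 0.939, with 0 of 4 members and 0.0% of all assays past an adjusted p of 0.05. At an unadjusted p under 0.05, limma called 0 of 4 members and 4.37% of all assays, 10 in number; the members' unadjusted p ran from 0.222 for mmu-miR-122 to 0.726 for mmu-miR-194. With ordinary variances in place of limma's shared variance the smallest adjusted p of a member was 0.799. The interval of each member included both lower and higher levels in knockout embryos.

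All 4 fold changes were above 0, but so were 68.1% of all tested assays, whose median log2 fold change was 0.26 and not 0. Against that median, mmu-miR-122 stood 0.52 higher, mmu-miR-192 0.24 higher and mmu-miR-215 0.17 higher, while mmu-miR-194 stood at -0.04. By fold change mmu-miR-122 was in place 22 of the 229 assays from the highest, mmu-miR-192 in place 71, mmu-miR-215 in place 85 and mmu-miR-194 in place 122. The hepatocyte microRNA was therefore the farthest from the middle of the panel, within a standard error of it.

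**Figure D2:**
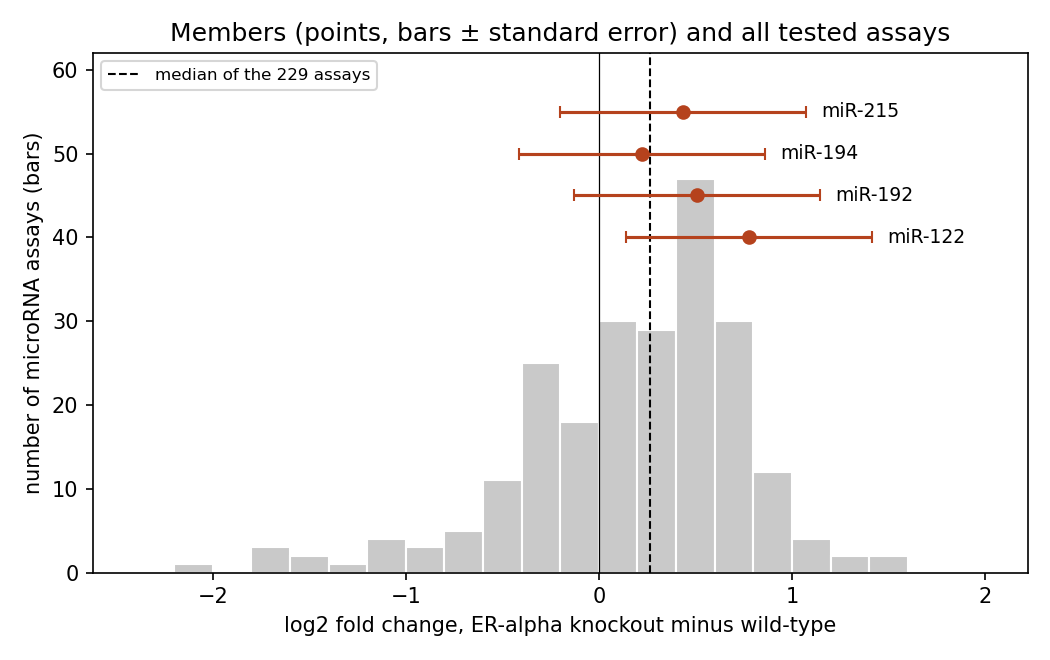
Grey bars count the 229 tested microRNA assays by log2 fold change, ER-alpha knockout minus wild-type; points are the 4 members with ± 1 standard error (0.64), placed at arbitrary heights. The dashed line is the median of all assays, 0.26, which lies within the error bars of all 4 members.

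Much of this changed when wild-type replicate 1 was left out. The fold change on the log2 scale was then 0.28 for mmu-miR-122, 0.07 for mmu-miR-192, 0.20 for mmu-miR-194 and -0.25 for mmu-miR-215, and the median of the 241 assays then tested was -0.03. That fit also changed the set of assays on which levels were centred. With the 229 assays detected in all samples kept, the values in the same order were 0.61, 0.40, 0.53 and 0.09. The median of all assays was then 0.30. Against the median the members stood alike in both fits, and mmu-miR-122 remained the farthest above, at 0.31. mmu-miR-194 moved from below the median to 0.23 above it, and mmu-miR-215 from above to -0.21. Both with and without that sample 3 of the 4 members lay above the median, but not the same 3. Without wild-type replicate 2 mmu-miR-122 was at 1.07, mmu-miR-192 at 0.73, mmu-miR-194 at 0.03 and mmu-miR-215 at 0.90, and the median of all assays was 0.33. There mmu-miR-215 had an unadjusted p under 0.05 in limma, as did 68 of 235 assays, and an adjusted p of 0.168. The only wild-type sample in that fit is the one read to whole cycles, and it is assumed to vary like the knockout samples, whose spread alone sets these p-values. Without ER-alpha knockout replicate 1, whose levels were the highest, the fold changes in the same order were 0.37, 0.12, -0.02 and 0.22 around a median of 0.10. Without ER-alpha knockout replicate 2 they were 1.11, 0.81, 0.39 and 0.57 around a median of 0.42.

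**Figure D3:**
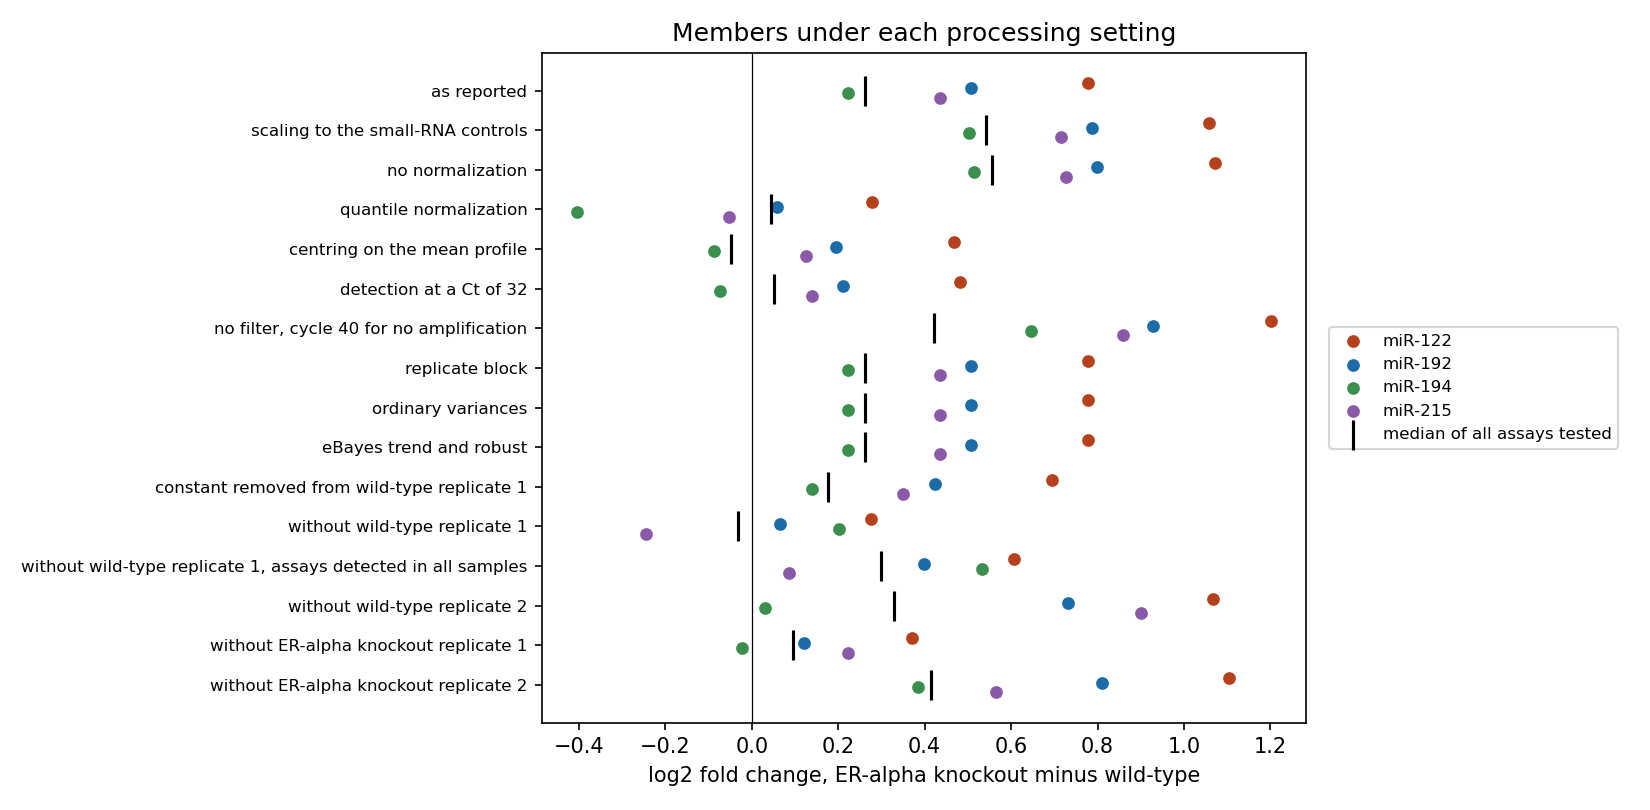
Log2 fold change (ER-alpha knockout minus wild-type) of the 4 members, coloured points, and the median of all assays tested, black tick, under each processing setting on the vertical axis. Points move with the tick: mmu-miR-122 lies to its right in every setting, by 0.23 to 0.78, while mmu-miR-194 and mmu-miR-215 lie on either side of it.

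The members can also be set against each other within a sample, which needs no centring: the Ct difference of 2 assays of the same RNA is free of the sample's overall input. mmu-miR-122 came later than mmu-miR-192 by 0.98 and 0.86 cycles in wild-type and by 0.63 and 0.67 cycles in knockout samples. The difference was smaller in both knockout samples than in both wild-type samples, by 0.27 cycles on average and by 0.21 without wild-type replicate 1. The wild-type value of 0.98 is that of replicate 1, read only to whole cycles. The share of all assay pairs whose groups separate in this way was not counted. The exact permutation test gave p = 0.333, the smallest that 2 against 2 samples allow, and 0.8 after adjustment over the 6 pairs of members. In this pair a liver-specific microRNA is set against one shared by liver, gut and kidney.

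The mmu-miR-194 assay sums the RNA of both loci, so its differences from mmu-miR-192 and mmu-miR-215 are not values of a single locus. The Ct of mmu-miR-192 minus that of mmu-miR-194 was -1.0 and -1.83 cycles in wild-type and -1.84 and -1.56 cycles in knockout samples. The smallest difference is that of wild-type replicate 1, and the other 3 samples lay within 0.28 cycles. The knockout minus wild-type difference of this pair was -0.28 cycles, and 0.14 (turned in sign) without wild-type replicate 1. The Ct of mmu-miR-194 minus that of mmu-miR-215 was -0.01 and 1.30 cycles in wild-type and 0.83 and 0.89 cycles in knockout samples. The knockout values lay between those of the wild-type samples. Their difference was 0.21 cycles, and -0.45 without wild-type replicate 1 (exact permutation p = 1.0).

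For the seed pair, the Ct of mmu-miR-192 minus that of mmu-miR-215 was -1.01 and -0.53 cycles in wild-type and -1.01 and -0.67 cycles in knockout samples. The groups overlapped, and the knockout minus wild-type difference was -0.07 cycles (-0.31 without wild-type replicate 1, 0.17 without wild-type replicate 2). mmu-miR-122 minus mmu-miR-194 moved by -0.56 cycles and mmu-miR-122 minus mmu-miR-215 by -0.34 cycles, both with overlapping groups; without wild-type replicate 1 these were -0.08 and -0.52. The exact permutation test gave p = 0.667 for each of these 3 pairs and for mmu-miR-192 minus mmu-miR-194, and 0.8 after adjustment. In wild-type replicate 1 all 6 differences were within 0.02 of 0 or 1 cycle in size; its wells were those near whole cycles. The 6 member pairs had a median range over the samples of 0.78 cycles, and 0.40 without wild-type replicate 1. Over all 26106 pairs of tested assays the medians were 1.37 and 0.75. The members have earlier Ct values than most assays (places 32 to 73 of 229 by mean Ct), and the part of that in their smaller range was not tested.

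**Figure D4:**
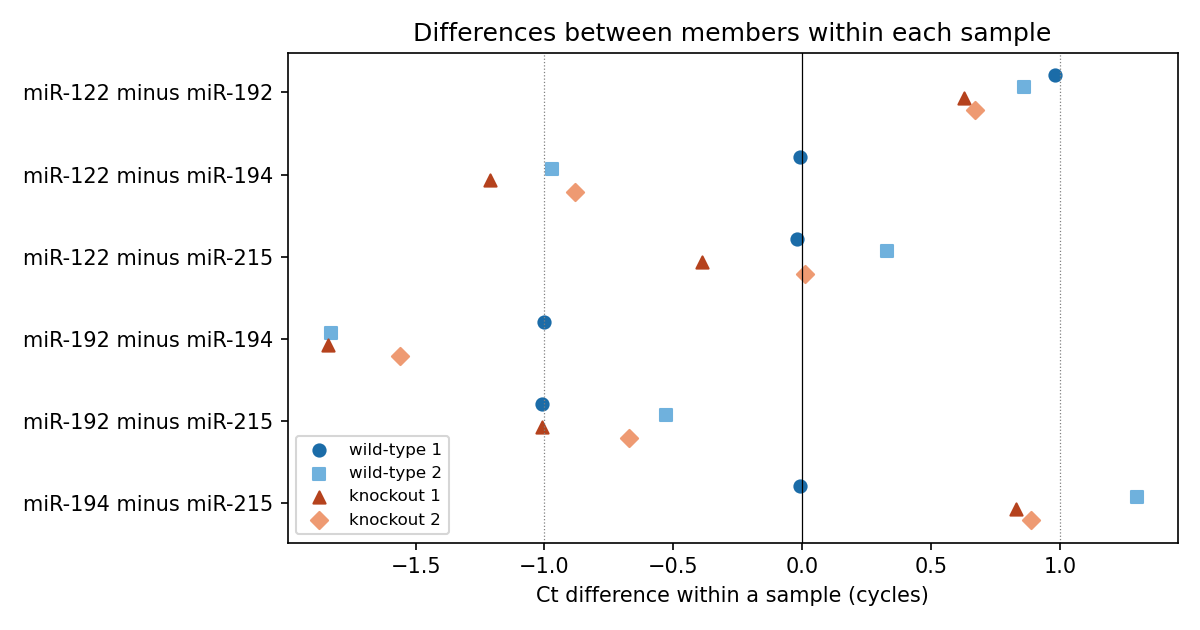
Ct difference in cycles for each of the 6 pairs of members; each point is 1 sample and dotted lines mark 1 cycle. The points of wild-type replicate 1 sit on 0 or 1 cycle in size, and for mmu-miR-122 minus mmu-miR-192 both knockout points (0.63 and 0.67) lie below both wild-type points (0.86 and 0.98). The point at 0.98 is that of wild-type replicate 1, read only to whole cycles.

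Levels were next read over the mean Ct of the 5 control assays on the plate (the small nuclear RNA MammU6, the small nucleolar RNAs snoRNA135, snoRNA202 and U87, and Y1), a scale that does not rest on other microRNAs. The controls did not move alike. U87 was read at a Ct of 26.26 and 27.80 in wild-type and 26.08 and 28.26 in knockout samples. MammU6 stayed between 15.62 and 16.03. In wild-type replicate 1 the controls other than MammU6 were also near whole cycles plus the constant. On this scale mmu-miR-122 stood at -2.62 and -0.84 log2 units in wild-type and at -0.52 and -0.82 in knockout samples. mmu-miR-192 stood at -1.63 and 0.02 in wild-type and at 0.10 and -0.15 in knockout samples. Wild-type replicate 1 was the lowest sample for both, and the other 3 samples lay close together.

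The level of mmu-miR-194 over the controls was -2.63 and -1.81 in wild-type and -1.74 and -1.70 in knockout samples. That of mmu-miR-215 was -2.64 and -0.51 in wild-type and -0.91 and -0.81 in knockout samples, so that the wild-type samples enclosed both knockout samples. The knockout minus wild-type difference was 1.06 for mmu-miR-122, 0.79 for mmu-miR-192, 0.50 for mmu-miR-194 and 0.72 for mmu-miR-215. The median of all 229 assays on this scale was 0.54, so that mmu-miR-194 lay below it and the other members above. Without wild-type replicate 1 the members' differences in this order were 0.17, -0.04, 0.09 and -0.35. Leaving out wild-type replicate 2 gave 1.95, 1.61, 0.91 and 1.78. The scale shifts all assays alike. Against the median of the 229 assays the members without wild-type replicate 1 thus stood as after centring, at 0.31, 0.10, 0.23 and -0.21. Exact two-sided permutation tests gave p = 0.333 for mmu-miR-122 and mmu-miR-194, 0.667 for mmu-miR-192 and 1.0 for mmu-miR-215, with 0.666 the smallest after adjustment over the 4 members. In this test 0.333 is the smallest p that 2 against 2 samples allow. For mmu-miR-122 and mmu-miR-194 both knockout samples lay above both wild-type samples. The share of all assays that did so on this scale was not counted. With each control alone the difference stayed above 0 for all 4 members and was largest against Y1 (1.65 for mmu-miR-122 and 1.10 for mmu-miR-194). Another control shifts the difference of every assay by the same amount. The members' distances from the median of all assays therefore stayed the same, with mmu-miR-194 below it.

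The microRNAs whose profile over the 4 samples was most like that of each member were found by the root mean square difference of centred levels, after the mean of each assay over the 4 samples was taken off. For mmu-miR-192 the nearest were mmu-miR-140, known from cartilage (0.010 log2 units), rno-miR-345-3p (0.045) and mmu-miR-152 (0.048). For mmu-miR-122 they were mmu-miR-532-5p (0.121), mmu-miR-224 (0.129) and mmu-miR-431 (0.139), and mmu-miR-192 came in place 6 (0.144). For mmu-miR-194 they were mmu-miR-214 (0.059), mmu-miR-434-5p (0.061) and mmu-miR-137 (0.072). For mmu-miR-215 they were mmu-miR-340-5p (0.073), mmu-miR-30a (0.081) and the muscle microRNA mmu-miR-1 (0.084).

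No member was thus among the 3 nearest of another. mmu-miR-194, summed over both loci, came in place 99 for mmu-miR-192 (0.343) and in place 130 for mmu-miR-215 (0.478), where the median over all other assays was 0.396 and 0.416. The seed relatives were closer to each other (0.212; place 46 for mmu-miR-192 and 45 for mmu-miR-215). The difference of mmu-miR-194 from the rest lies mainly in wild-type replicate 1. The Ct of mmu-miR-122 minus that of mmu-miR-194 was -0.01 there and -0.88 to -1.21 in the other samples. For mmu-miR-192 minus mmu-miR-194 it was -1.0 against -1.56 to -1.84. For mmu-miR-194 minus mmu-miR-215 it was -0.01 against 0.83 to 1.3. In centred level, wild-type replicate 1 was above wild-type replicate 2 for mmu-miR-194 and below it for the other members. With 4 samples, 1 of them (wild-type replicate 1) read to whole cycles, the profile distances describe these samples only.

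**Figure D5:**
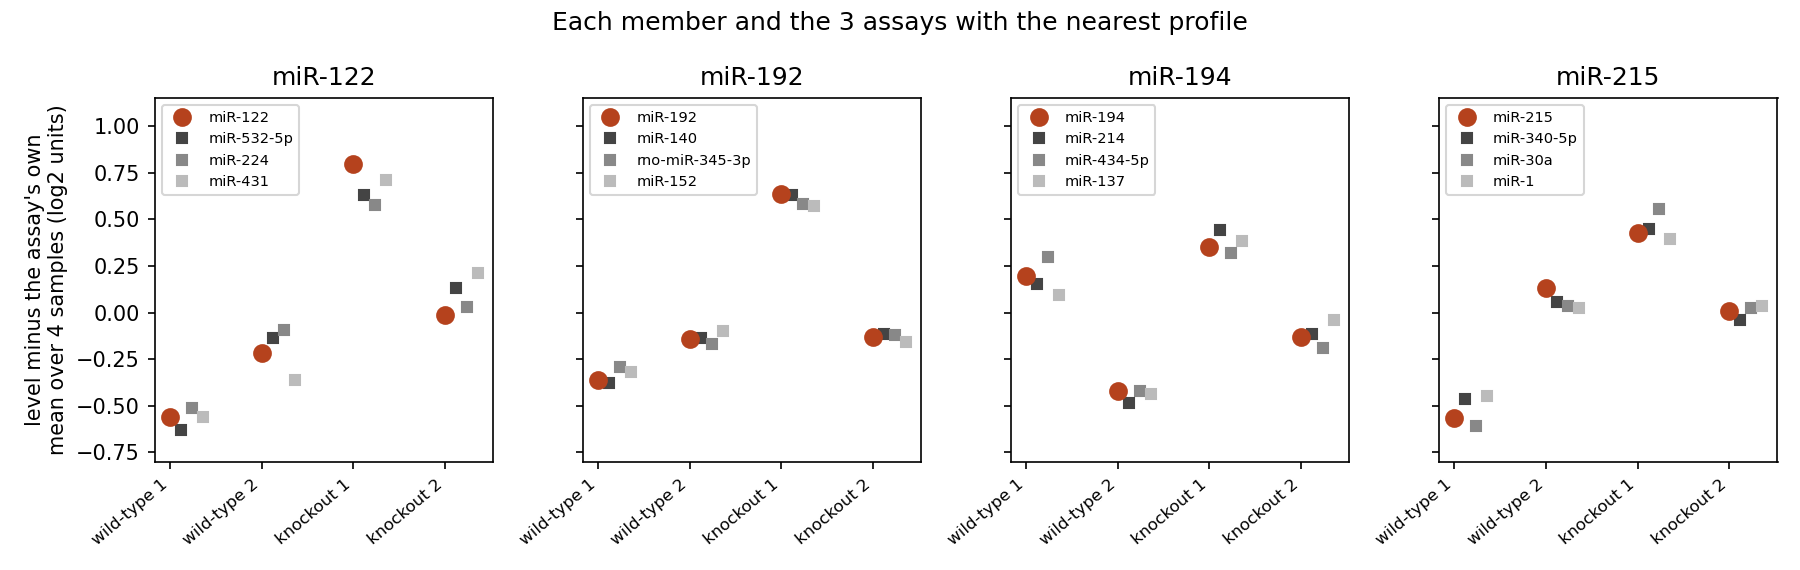
Level of each member (large points) and of the 3 assays with the nearest profile (squares, set slightly to the right), minus each assay's own mean over the 4 samples, in log2 units. ER-alpha knockout replicate 1 is the highest in all 4 panels, and wild-type replicate 2 is the lowest for mmu-miR-194 only.

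Other microRNAs of the same organs were read from lists made by tissue. List values without wild-type replicate 1 are from the fit of 241 assays, whose median was -0.03. Of the other liver-rich microRNAs, 3 were on the panel and 2 were tested: mmu-miR-101a had a log2 fold change of 0.82 and mmu-miR-148a one of -0.12 (0.11 and -0.25 without wild-type replicate 1). The third liver-rich assay, mmu-miR-802, was read at a Ct of 36.23 and 31.82 in wild-type and at 32.88 and 34.04 in knockout samples, and was left out because of the late first value. All 3 kidney-rich microRNAs were tested, with a median of 0.07, from mmu-miR-10a at -0.10 to mmu-miR-204 at 0.44 (-0.14 and -0.43 without wild-type replicate 1). The other p53-responsive microRNAs, the miR-34 family, had a median of -0.22 over 3 tested assays, from mmu-miR-34c at -1.59 to mmu-miR-34b-3p at 0.47 (-1.58 and -0.60 without wild-type replicate 1), below the members' median of 0.47. Without wild-type replicate 1 the medians were -0.07 for other liver-rich, -0.22 for kidney-rich and -0.60 for other p53-responsive assays, against 0.13 for the members. In none of these lists did an assay pass an adjusted p of 0.05 in limma, and 1 p53-responsive assay, mmu-miR-34c, had an unadjusted p under 0.05. The Ct values of mmu-miR-34c were late, at 33.29 and 32.09 in wild-type and 34.22 and 33.75 in knockout samples. The detection limit was a Ct of 35.

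MicroRNAs of cell types that adjoin or share these organs also had medians above 0, as did all tested assays together (0.26). All 8 epithelial assays were tested, with a median of 0.38 (mmu-miR-203 0.81, mmu-miR-205 -0.46; -0.08 and -0.10 without wild-type replicate 1). Of 6 assays of pancreas and endocrine cells 4 were tested, with a median of 0.57 (mmu-miR-7b 1.11, mmu-miR-7a 0.02; 1.37 and -0.54 without wild-type replicate 1). All 7 blood-cell assays were tested, with a median of 0.63, from mmu-miR-142-5p at -0.56 to mmu-miR-155 at 0.91 (-0.70 and 0.17 without wild-type replicate 1).

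The blood-cell assays averaged a centred level of -0.57 and 0.11 in wild-type and 0.43 and 0.00 in knockout samples. By fold change 6 of 7 blood-cell assays lay above the median of all assays, and 2 of 7 did so without wild-type replicate 1. For epithelium these counts were 5 and 4 of 8, and for pancreas and endocrine cells 3 and 2 of 4. The 4 members averaged 2.25 and 2.41 in wild-type and 3.13 and 2.51 in knockout samples. Both averages were highest in ER-alpha knockout replicate 1 and lowest in wild-type replicate 1. So were those of the other liver-rich, the kidney-rich and the pancreas and endocrine assays. The epithelial average was also highest in ER-alpha knockout replicate 1, but lowest in wild-type replicate 2. That of the other p53-responsive assays was highest in wild-type replicate 1. The part of blood cells in the members' values was not tested. Without wild-type replicate 1 the medians were 0.13 for the members, 0.01 for epithelium, -0.01 for pancreas and endocrine cells and -0.19 for blood cells, against -0.03 for all assays. No assay of these 3 lists passed an adjusted p of 0.05 in limma, and none had an unadjusted p under 0.05.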

How the data were processed

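The deposited values are threshold cycles per well, per the file headers, from TaqMan real-time PCR of 40 cycles (7900HT system), per the labels' protocols. Threshold, baseline and any normalization by the authors are not given in the sources used here. The members and lists were chosen with earlier results of these data known. In wild-type replicate 1, wells above cycle 40 were taken as not amplified, and the constant of 0.273 was kept. The 4 U6 wells were averaged. MicroRNAs with a Ct of 35 or lower in all samples were centred on the sample median; the groups were fitted by lmFit and eBayes of limma 3.58.1 (R 4.3.3) with no other term. The prior degrees of freedom came out infinite, which gives every assay the same standard error. Pairs of members and levels over the controls were compared with exact permutation tests (scipy 1.17.1). Named assays are the members, the 3 nearest profiles of each, the highest and lowest of each list and the controls; mmu-miR-802 was named after its values were seen. Sequences are from RefSeq, GRCm38.p6. Python 3.11.15 with pandas 2.3.3 handled the tables, and plots were drawn with matplotlib 3.10.9. Alternatives were other scalings, detection limits and variance models, a block for the replicate number, each control alone, and leaving out samples in turn. Only 2 samples per group limit the precision.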

Additional observations from a re-analysis of the deposited data

How the results depend on the processing

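No member passed an adjusted p of 0.05 in limma under any of the 15 alternatives; the smallest adjusted p of a member ranged from 0.168 (mmu-miR-215, without wild-type replicate 2, where its unadjusted p was under 0.05) to 1.0 (no normalization). mmu-miR-122 and mmu-miR-192 kept a fold change above 0 in all of them. mmu-miR-194 fell below 0 with quantile normalization (-0.405), centring on the mean profile (-0.088) and detection at a Ct of 32 (-0.074); with a sample left out it ranged from -0.022 to 0.385, and to 0.532 with the added alternative below. Centring on the mean profile moves all assays alike (median of all assays -0.048), so mmu-miR-194 stayed at -0.04 against that median, as reported; against the median it was -0.45 with quantile normalization and -0.125 at a Ct of 32. mmu-miR-215 was -0.053 with quantile normalization and ranged from -0.245 to 0.900 with a sample left out. The median of the members was 0.47, and it was 0.002 with quantile normalization and 0.89 with no filter and cycle 40 for wells without amplification, where the medians of all assays were 0.045 and 0.421; the cause was not tested. It was 0.16 with the mean profile, 0.174 at a Ct of 32, 0.75 over the controls and 0.763 with no normalization (all assays -0.048, 0.051, 0.542 and 0.555), and 0.133 to 0.816 with a sample left out. In those fits the lone sample of a group is assumed to vary like the other group. With the replicate number as a replicate block, limma called 1 of all assays and 0 members (smallest adjusted p of a member 0.732). The deviations of same-numbered samples from their group means correlated at r = 0.369 over assays. With 2 samples per group this is a single comparison, and swapping the numbers in 1 group would only turn its sign. No label says what a number marks. Leaving out wild-type replicate 1 while keeping the assays detected in all samples, an alternative added after seeing the data, called 1 assay, no member; the other 4 fits without a sample called 0. The assays have 1 well each, so technical error per member is unknown.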
